A study of Drosophila melanogaster with 24 samples.

Results

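The ovary sex-switch experiment is described here from 12 RNA-seq libraries of Drosophila melanogaster ovaries, chosen by their labels out of the 24 gonad libraries of the series. XX females with the temperature-sensitive allele pair tra2ts2/tra2ts1 in a w1118 background (called tra2ts) were compared with w1118 females, which carry normal tra2. All females were raised at 18 °C to an age of 5 days and moved to 29 °C, and ovaries were taken at 0, 12 and 24 h, with 2 independent dissections for each genotype and time. Egg chambers of stage 10 and older were removed. Per the labels, the shift inactivates Tra2 and makes tra2ts ovaries turn from the female product of doublesex to its male product.

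In Drosophila females the splicing factors Tra and Tra2 act together on the transcript of doublesex (dsx), and the result is the female protein DSX-F. Where either factor is missing, default splicing gives the male protein DSX-M. Both proteins bind the same DNA sites and act with different outcomes on sex-specific genes, of which the yolk protein genes are the textbook example. In the ovary dsx is a gene of the somatic cells, not of the germ cells that supply much of the RNA.

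The question was which genes changed after the shift in tra2ts ovaries otherwise than in w1118 ovaries. The measure, called the switch below, is a difference of differences: the mean change of 12 h and 24 h from 0 h in tra2ts minus the same change in w1118. A positive switch can come from a rise in tra2ts or from a fall in w1118, so both changes are given for rtet and for part of the other genes and lists. Where the switch stands alone, it does not show which genotype changed. The switch cannot separate the change of DSX form from other responses of either stock to temperature, and the whole fly was shifted. Counts per gene do not separate the dsx forms. Temperature-sensitive alleles act through the protein, so the tra2 transcript level does not check the labels. Fewer cells of a type and less RNA per cell cannot be told apart in whole ovaries.

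Total gene counts ran from 21950851 to 31032125 per ovary library, and 8784 genes were tested. Levels are CPM, the counts of a gene per 1e+06 reads after scaling, and SE is the standard error of a fitted log2 fold change. Genes were called where edgeR's quasi-likelihood p, adjusted by Benjamini-Hochberg over all tested genes, was under 0.05. Reads outside genes were 1.07% to 2.48% of reads, highest in w1118 24 h replicate 1 and tra2ts 24 h replicate 2. The 32 spermatid genes with an identifier summed to 398 to 745 CPM in ovaries against 23560 to 32470 CPM in testes, and the testis-specific genes dj and Mst84Da had 0 counts in all 12 ovary libraries. Few members carried the ovary sum: the median of the 9 tested was 1.55 to 3.03 in log2 CPM per library. Germline and follicle cell markers were present throughout: tj, a follicle cell transcription factor, stood at 110.1 to 242 CPM. The muscle marker Mhc stood at 99.2 to 294 CPM in the 6 tra2ts libraries and at 38.2 to 118 CPM in the 6 w1118 libraries, with no overlap at any time.

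One gene, rtet (FBgn0028468, arm 3R), was called in the switch. It was the 1 gene of 8784 tested, or 0.0114%, and its name comes from a resemblance to tetracycline-resistance transporters. In w1118 ovaries rtet stood at 54.0 and 57.9 CPM at 0 h, 15.4 and 17.9 CPM at 12 h, and 15.5 and 13.2 CPM at 24 h. In tra2ts ovaries it stood at 48.6 and 46.8 CPM at 0 h, 56.0 and 52.0 CPM at 12 h, and 49.3 and 65.2 CPM at 24 h. The 4 later w1118 libraries lay below all other ovary libraries, and the 0 h libraries of both genotypes lay near the later tra2ts libraries.

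The switch log2 fold change of rtet was 2.07 (SE 0.231, adjusted p = 0.0481 by edgeR), with a 95% interval of 1.56 to 2.59. It was 1.92 for 12 h alone and 2.22 for 24 h alone, values that share the 0 h libraries. The change lay in w1118, where rtet fell by 1.85 on the log2 scale (SE 0.164, adjusted p = 0.00188 by edgeR). In tra2ts the change of rtet was 0.22 (SE 0.163, adjusted p = 0.687), with an interval of -0.14 to 0.58. At 0 h the genotypes differed by -0.23 (SE 0.188, adjusted p = 1), and at the later times tra2ts was higher by 1.84 (SE 0.134, adjusted p = 0.000288). The call sat close to the threshold: without single libraries the adjusted p ran from 0.0116 to 0.933, and it was kept without tra2ts 24 h replicate 1 (0.0116) or replicate 2 (0.0226). Each of the other 10 libraries left out alone ended the call, while the log2 fold change ranged from 1.99 to 2.17. A robust fit also ended it (adjusted p = 0.0524). No exon of another gene overlaps rtet in the annotation used.

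**Figure D1:**
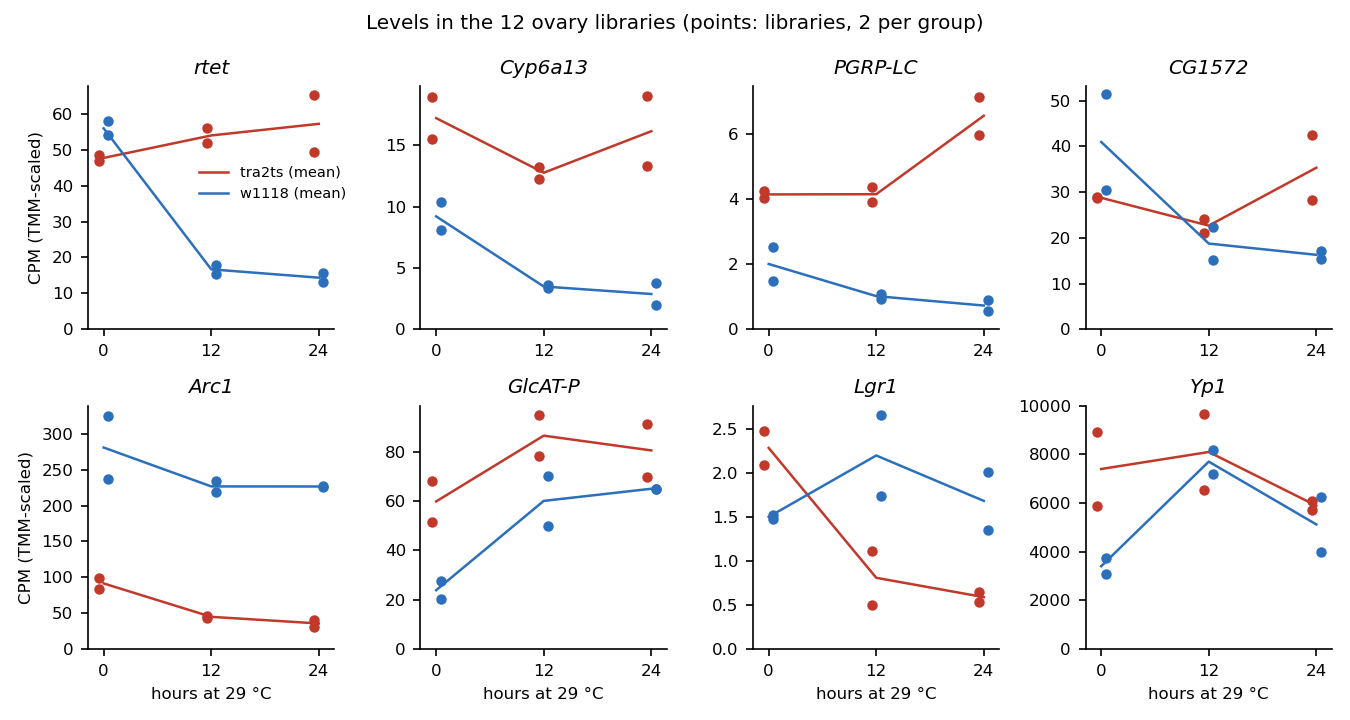
Level in CPM (y axis, linear from 0) against hours at 29 °C for 8 named genes; points are the 12 ovary libraries, 2 per group, and lines join group means. rtet in w1118 dropped from 54.0 and 57.9 CPM at 0 h to between 13.2 and 17.9 CPM later and was 46.8 to 65.2 CPM in all tra2ts libraries, while the other 7 genes were not called in the switch.

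No other gene passed by edgeR or by DESeq2, so none was called lower. An unadjusted p under 0.05 was found for 87 genes (0.99%), of which 51 (0.581%) were higher and 36 (0.41%) lower. The genes next in order of p, 11 higher and 12 lower with at least 1 CPM in a group, are given below as values; each had an adjusted p of 0.9998 by edgeR.

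Several higher values came, like that of rtet, with lower levels in later w1118 ovaries. The cytochrome P450 gene Cyp6a13 (arm 2R) stood at 8.05 and 10.4 CPM in w1118 at 0 h and at 1.97 to 3.78 CPM in the 4 later libraries. In tra2ts it stood at 15.5 and 18.9 CPM at 0 h and at 12.3 to 19.0 CPM later. Its w1118 libraries lay below every tra2ts library. Cyp6a13 fell by 1.54 in w1118 on the log2 scale (SE 0.284, adjusted p = 0.0449 by edgeR), with -0.26 (SE 0.276, adjusted p = 0.815) in tra2ts and a switch of 1.28 (SE 0.397).

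PGRP-LC, which encodes a peptidoglycan receptor of the Imd immune pathway, had a switch of 1.55 (SE 0.454). It stood at 4.27 and 4.03 CPM at 0 h, 3.93 and 4.39 CPM at 12 h, and 7.16 and 5.99 CPM at 24 h in tra2ts. In w1118 it stood at 1.48 and 2.54 CPM, 0.947 and 1.09 CPM, and 0.887 and 0.574 CPM at the same times. The genotypes did not overlap at any time, and the gap was called at the later times, with tra2ts higher by 2.60 (SE 0.269, adjusted p = 0.00137). CG1572 on the X stood at 30.6 and 51.4 CPM in w1118 at 0 h and at 15.1 to 22.4 CPM later, against 21.1 to 42.5 CPM in all tra2ts libraries. Its switch was 1.21 (SE 0.366). CG18324 had a switch of 0.71 (SE 0.233) and fell by 0.94 in w1118 (SE 0.165, adjusted p = 0.0377), and CG12910, under 4 CPM throughout, had a switch of 3.11 and fell by 3.97 in w1118 (SE 0.91, adjusted p = 0.0439). The exons of CG12910 overlap those of CAP on the same strand, so reads could be shared, and those of CG18324 overlap an antisense gene.

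Other higher values came with a rise in tra2ts. FBgn0040994, an identifier with no symbol in the tables used, stood at 0.464 and 0.278 CPM in tra2ts at 0 h and at 2.42 to 3.64 CPM later. In w1118 it stood at 1.397 and 1.94 CPM at 0 h and at 2.15 to 2.95 CPM later, so the later libraries of both genotypes lay in one range. In the testis libraries, scaled with all 24 libraries, it stood at 843.8 to 2462 CPM. It rose by 3.04 in tra2ts (SE 0.379, adjusted p = 0.0202) and its switch was 2.53 (SE 0.507). The long noncoding RNA gene lncRNA:CR43651, whose exons contain the microRNA gene mir-14 on the same strand, stood at 0.65 and 0.834 CPM in tra2ts at 0 h, 4.89 and 4.85 CPM at 12 h, and 6.84 and 8.64 CPM at 24 h. All 6 w1118 libraries lay between 0.329 and 1.49 CPM. This RNA rose by 3.05 in tra2ts (SE 0.395, adjusted p = 0.0206), with 0.47 (SE 0.433, adjusted p = 0.749) in w1118, and its switch was 2.58 (SE 0.586).

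A second noncoding gene that holds a microRNA, lncRNA:CR43857 with mir-275, had a similar course. In tra2ts its levels were 1.08 and 0.742 CPM at 0 h, 3.27 and 2.54 CPM at 12 h, and 7.36 and 4.64 CPM at 24 h. The w1118 libraries lay between 0.452 and 0.901 CPM, below all later tra2ts libraries. The change in tra2ts was 2.18 (SE 0.377, adjusted p = 0.0535) and the switch 1.85 (SE 0.556). The mature microRNAs were not measured.

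The remaining higher values were of low or variable genes. The Rac exchange factor gene sif had 46 counts in tra2ts and 4 in w1118 over the 0 h libraries, a count ratio of 10.2 (95% exact counting interval 3.73 to 39.1). Over the 12 h and 24 h libraries it had 159 counts in tra2ts and 0 in w1118, which makes it at least 56.2-fold higher against a floor of 3 counts over the group. Its exons overlap those of CG46320 on the same strand. Nplp4, a neuropeptide-like precursor gene, had a switch of 2.92 (SE 0.767) at levels of at most 1.98 CPM, and CG42566 one of 1.19 (SE 0.396).

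Among the lower values, Arc1 had the highest level. Arc1 (arm 2R) encodes a capsid-forming protein related to retrotransposon Gag. It stood at 84.1 and 98.8 CPM at 0 h, 46.0 and 43.9 CPM at 12 h, and 31.2 and 40.1 CPM at 24 h in tra2ts. In w1118 all 6 libraries lay between 218 and 324 CPM. The genotypes did not overlap at any time, and tra2ts was lower at 0 h by a called -1.62 (SE 0.212, adjusted p = 0.0213 by edgeR). Arc1 fell by 1.19 in tra2ts (SE 0.184, adjusted p = 0.0228), had -0.31 (SE 0.183, adjusted p = 0.544) in w1118, and had a switch of -0.88 (SE 0.26).

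GlcAT-P, a glucuronyltransferase gene, had a switch of -0.91 (SE 0.309) with the change in w1118. There it stood at 27.4 and 20.4 CPM at 0 h and at 49.8 to 70.3 CPM later, a rise of 1.39 (SE 0.219, adjusted p = 0.033). Its tra2ts libraries lay at 68.2 and 51.5 CPM at 0 h and at 69.9 to 94.9 CPM later. Lgr1, a gene for a glycoprotein hormone receptor, stood at 2.48 and 2.09 CPM in tra2ts at 0 h and at 0.501 to 1.12 CPM later, below the 4 later w1118 libraries at 1.35 to 2.65 CPM. Its switch was -2.08 (SE 0.568), with -1.72 (SE 0.404, adjusted p = 0.0981) in tra2ts. The filamin gene jbug had a switch of -0.73 (SE 0.269), with 23.7 to 43.2 CPM over all libraries.

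Small noncoding RNA genes made up 3 of the lower values. The 7SK RNA gene snRNA:7SKa, whose RNA regulates transcription elongation, stood at 14.1 and 39.4 CPM in tra2ts at 0 h and at 0.739 and 3.93 CPM in w1118. Later it stood at 1.13 to 7.70 CPM in tra2ts and at 1.29 to 12.3 CPM in w1118, and its switch was -4.65 (SE 1.25). The snoRNA genes snoRNA:Psi28S-3436a and snoRNA:Psi28S-291, which guide pseudouridylation of ribosomal RNA, had switches of -2.47 (SE 0.686) and -3.66 (SE 1.25). CG42489 (-2.33, SE 0.723), CG33003 (-3.03, SE 1.04) and inaD (-2.28, SE 0.873), a phototransduction scaffold gene, stood at 5.98 CPM or less in every library. Exons of inaD overlap RpL23 on the other strand, those of CG42489 overlap Sys1 and those of CG10182 an antisense gene, and the reads carry no strand.

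CG10182 had 1 count over the 4 later tra2ts libraries and 162 over the 4 later w1118 libraries, a count ratio of 153 (95% exact counting interval 27.1 to 6076). At 0 h it had 6 and 9 counts. Several of these switches moved by over 1.5 times without single libraries: CG12910 ranged from 1.77 to 4.31, CG42566 from 0.65 to 1.60, CG1572 from 0.77 to 1.54, inaD from -3.01 to -1.34, snoRNA:Psi28S-291 from -4.83 to -2.04 and CG10182 from -11.62 to -1.96. Fad2 had a like pattern and is given with the DSX targets.

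**Figure D2:**
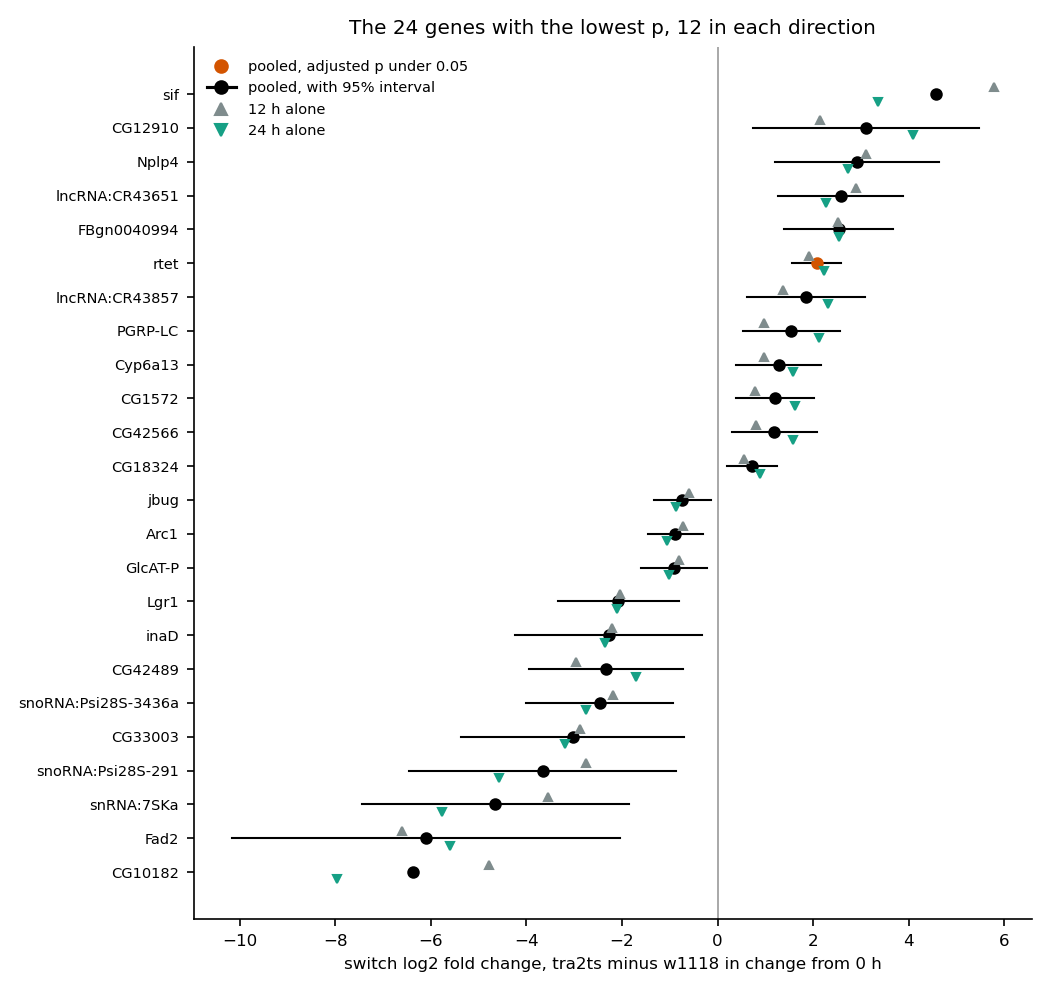
Switch log2 fold change (x axis) of the 12 higher and 12 lower genes with the lowest p and at least 1 CPM in a group (y axis). Circles are the pooled values with 95% intervals, triangles the values at 12 h and 24 h alone, and sif and CG10182 have no interval because a group held 0 counts; rtet at 2.07 is the called gene.

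The genes that read, splice or carry out the sex signal showed no call in the switch. Of 21 tested sex determination genes, 11 lay above 0 with a median log2 fold change of 0.04, beside a median of -0.01 over all 8784 genes, and 0 had an unadjusted p under 0.05. tra2 itself stood at 56.4 to 74.6 CPM in tra2ts and at 63.1 to 83.3 CPM in w1118, and its switch was -0.03 (SE 0.225). Its exons overlap Blos1 on the other strand. The 6 libraries of each genotype overlapped.

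dsx stood at 6.28 and 5.10 CPM at 0 h, 3.62 and 4.43 CPM at 12 h, and 4.73 and 3.82 CPM at 24 h in tra2ts. In w1118 it stood at 3.37 and 3.88 CPM, 3.63 and 3.97 CPM, and 1.96 and 2.66 CPM. Its switch was -0.17 (SE 0.379), with an interval of -1.01 to 0.68, and its exons overlap lds on the other strand. Upstream of dsx, tra had a switch of 0.15 (SE 0.307) and Sxl, the master switch gene of the female state, one of 0.04 (SE 0.255). fru, the other splicing target of Tra and Tra2, had -0.15 (SE 0.592), and ix, whose product is a cofactor of DSX-F, had 0.25 (SE 0.281). Phf7, a histone reader of male germ cells, had 0.36 (SE 0.217) with 33.5 to 50.1 CPM over all libraries.

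Genes described as DSX targets lay mostly below 0, with none called. The 10 listed genes were all tested, 1 lay above 0, beside 4301 of all 8784 genes, and the median was -0.56. Yp1 and Fad2 had an unadjusted p under 0.05 by edgeR, as had 0.99% of all genes tested. The change from 0 h in tra2ts was above 0 for 5 of the 10, with a median of -0.03. In w1118 it was above 0 for 8 of the 10, with a median of 0.31.

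No yolk protein gene was called between genotypes at 0 h, between genotypes over 12 h and 24 h together, or in the switch. Yp1 stood at 5872 and 8935 CPM at 0 h, 6534 and 9670 CPM at 12 h, and 5708 and 6082 CPM at 24 h in tra2ts. In w1118 it stood at 3743 and 3070 CPM at 0 h, 7211 and 8201 CPM at 12 h, and 3990 and 6260 CPM at 24 h. Both w1118 libraries at 0 h lay below every tra2ts library, while at 12 h and 24 h the genotypes overlapped. The switch of Yp1 was -0.98 (SE 0.394, unadjusted p = 0.0326 by edgeR, adjusted p = 0.9998), made of -0.10 (SE 0.278) in tra2ts and 0.88 (SE 0.279, adjusted p = 0.204) in w1118. asRNA:CR45601 lies antisense to exons of Yp1.

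Yp2 followed the same course. Its libraries at 0 h were 7721 and 12320 CPM in tra2ts against 3996 and 3927 CPM in w1118, and later they were 7638 to 12510 CPM against 4389 to 9185 CPM. The switch was -0.94 (SE 0.421, unadjusted p = 0.051) for Yp2 and -0.34 (SE 0.366, unadjusted p = 0.381) for Yp3. Without single libraries these ranged from -1.25 to -0.65 for Yp1, -1.24 to -0.56 for Yp2 and -0.55 to -0.09 for Yp3. At 0 h tra2ts minus w1118 was 1.12 (SE 0.322, adjusted p = 0.404) for Yp1, 1.34 (SE 0.344, adjusted p = 0.275) for Yp2 and 0.32 (SE 0.299) for Yp3. At the later times tra2ts minus w1118 was 0.14 (SE 0.227) for Yp1, 0.40 (SE 0.243) for Yp2 and -0.02 (SE 0.211) for Yp3, with none called. The yolk receptor gene yl had a switch of -0.65 (SE 0.615).

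Fad2, a desaturase gene of female pheromone synthesis, was near 0 in the later tra2ts libraries. It stood at 3.28 and 0.834 CPM in tra2ts at 0 h, 0 and 0.0385 CPM at 12 h, and 0 and 0.0966 CPM at 24 h. In w1118 it stood at 1.15 and 3.42 CPM, 1.55 and 3.64 CPM, and 4.57 and 0.697 CPM. Every later tra2ts library lay below all other ovary libraries, and libraries of one group differed several-fold. Over the later libraries it had 3 counts in tra2ts and 246 in w1118, a ratio of w1118 to tra2ts of 77.4 (95% exact counting interval 26.2 to 378), whereas at 0 h the ratio of tra2ts to w1118 was 1.08 (0.824 to 1.42). The later genotype difference was called (adjusted p = 0.0175 by edgeR), and the switch was not (unadjusted p = 0.00276, adjusted p = 0.9998).

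The elongase gene eloF, of the same pheromone pathway, had 10 counts in the later tra2ts and 95 in the later w1118 libraries, a ratio of w1118 to tra2ts of 8.97 (4.67 to 19.3). At 0 h the pooled counts had the other order, with tra2ts 2.07 times w1118 (1.41 to 3.10). Both intervals cover counting error only, not the spread between dissections. By edgeR the genotype difference of eloF had an unadjusted p over 0.05 at 0 h and was not called at the later times. The switch of eloF was -4.17 (SE 1.94, unadjusted p = 0.0537 by edgeR), and w1118 24 h replicate 2 also had 0 counts. The hydrocarbon synthesis list held both genes: of 10 tested, 2 lay above 0 and the median was -0.47. The median change of this list was -0.955 in tra2ts and 0.18 in w1118. In it Cyp4g1, an oenocyte P450 that makes cuticular hydrocarbons, stood at 148 and 113 CPM in tra2ts at 0 h and at 28.4 to 62.4 CPM later, and varied from 4.10 to 74.2 CPM over w1118 libraries. Oenocytes and fat body lie outside the ovary. The fat body list had 7 members tested, 3 of them above 0, with a median of -0.68, and apolpp, a lipid carrier gene, at -1.55 (SE 0.904). It summed to 59.46 and 60.26 CPM at 0 h and 31.88 to 50.04 CPM later in tra2ts, and to 36.31 and 74.15 CPM at 0 h and 23.43 to 62.45 CPM later in w1118. Its markers Lsp1alpha and Fbp1 stood at 0.402 CPM or less in every library, with 0 counts in several, and were not tested. Other markers were tested: Lsp1beta had a switch of -0.87 (SE 1.255), Lsp2 of 0.28 (SE 1.23) and fit of -0.68 (SE 1.581). Without w1118 0 h replicate 2 the fat body list had 1 of 7 above 0 and a median of -1.38. The part of fat body in the yolk protein and hydrocarbon values was not tested.

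bab1, which patterns the terminal filament of the ovary, was the target above 0, at 0.93 (SE 0.452). Its paralogue bab2 had -0.68 (SE 0.713), the elongase gene bond -0.45 (SE 0.401), the desaturase gene Desat1 -0.12 (SE 0.219) and the relaxin-type receptor gene Lgr3 -0.13 (SE 0.535). The intervals of all but Desat1 reached beyond 1 on the log2 scale in at least 1 direction.

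**Figure D3:**
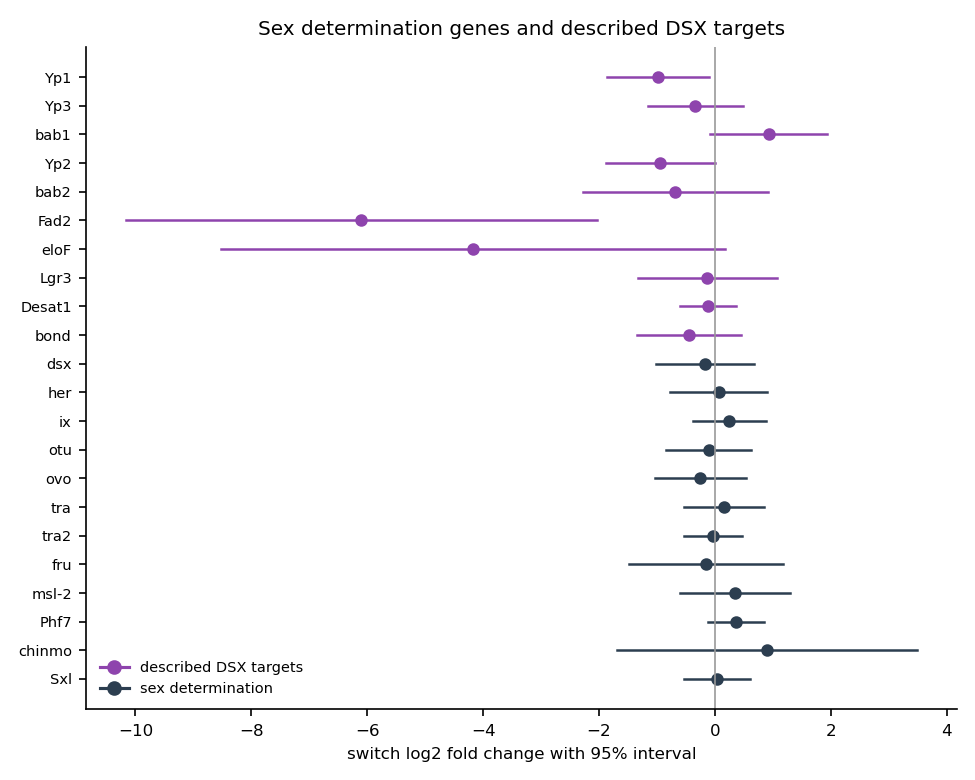
Switch log2 fold change with its 95% interval (x axis) for 10 described DSX targets and 12 sex determination genes (y axis). All targets but bab1 lie below 0, with Fad2 (-6.10) and eloF (-4.17) farthest and with wide intervals, and the sex determination genes shown lie between -0.25 (ovo) and 0.90 (chinmo) with intervals that cross 0.

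Genes of the gonad's own cell types were not called. The female germline list had 10 of 27 tested members above 0 with a median of -0.05, and the piRNA pathway list, of genes that silence transposons, had 16 of 26 and 0.04. The female somatic gonad list had 9 of 21 and -0.07, the EGFR signalling list 6 of 23 and -0.06, and the JAK/STAT and testis niche list 7 of 15 and -0.01. None of these lists had a member called or under an unadjusted p of 0.05. The somatic list turned with single libraries, to 5 of 21 and -0.45 without w1118 0 h replicate 2 and to 14 of 21 and 0.30 without replicate 1. The piRNA list moved to 21 of 26 and 0.18, and to 9 of 26 and -0.07, in the same order. Without both 24 h libraries with most reads outside genes, the female germline list had 18 of 27 above 0 and the EGFR list 15 of 23. The somatic list summed to 461 CPM in w1118 24 h replicate 1 and 474 CPM in tra2ts 24 h replicate 2, those same 24 h libraries, against 771 to 1020 CPM in the other 10. In that list Fas3, an adhesion protein of follicle and testis hub cells, had 0.75 (SE 0.357) and slbo, which drives border cell migration, had -1.17 (SE 0.662).

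Among the listed genes of male germ cells, none that was tested was called in the switch, and most were not tested. Of 12 spermatocyte regulators with an identifier 5 passed the filter on low counts, and of 32 spermatid genes 9 passed. Their medians were -0.04 and 0.18, and no member had an unadjusted p under 0.05. aly and can, which switch on spermatocyte transcription, stood at 0.0924 CPM or less in every ovary library. The regulator mia rose in both genotypes, by 2.11 in tra2ts (SE 0.339, adjusted p = 0.0464) and by 2.15 in w1118 (SE 0.333, adjusted p = 0.033), and its switch was -0.04.

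The 12 chorion genes summed to 2807 and 3519 CPM at 0 h, 7459 and 14040 CPM at 12 h, and 5886 and 8956 CPM at 24 h in tra2ts. In w1118 they summed to 4243 and 7791 CPM, 13020 and 14210 CPM, and 17160 and 37710 CPM, given from the lower to the higher library. Within each genotype the later libraries lay above those at 0 h. In the switch 1 of 12 chorion genes lay above 0 with a median of -0.33, with 6 of 12 and -0.07 without w1118 0 h replicate 2, and with 1 of 12 and -1.27 without replicate 1. The vitelline membrane and eggshell list had 3 of 19 above 0 and a median of -0.21. Chorion genes are made by late follicle cells, the stages removed at dissection, and the part of remaining late egg chambers was not tested. The heat shock list had 2 of 19 above 0 and a median of -0.25, with Hsc70-3, a chaperone of the endoplasmic reticulum, at -0.47 (SE 0.411).

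The antimicrobial and stress peptide list had the median farthest from 0. Of 24 tested members 20 lay above 0, beside 4301 of all 8784 genes, and the median was 1.48. Of the 24, 7 had an unadjusted p under 0.05 by edgeR, all higher and none called, beside 0.581% higher over all genes tested. The median change of the list was -0.16 in tra2ts and -1.84 in w1118. TotA, a humoral stress peptide gene, stood at 0.329 and 14.7 CPM in w1118 at 0 h, against 0.324 to 0.697 CPM in the later w1118 libraries and 1.01 to 17.2 CPM in tra2ts. The list summed to 162.5 CPM in w1118 0 h replicate 2, 76.85 CPM in replicate 1 and 69.77 to 82.93 CPM in the later w1118 libraries. Without w1118 0 h replicate 2 the list had 7 of 24 above 0 and a median of -1.20, so its direction rests on that library. Without replicate 1 it had 21 of 24 above 0.

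Cytoplasmic ribosomal protein genes turned with the same library. With all libraries 77 of 82 tested lay above 0 with a median of 0.15, and without w1118 0 h replicate 2 it was 2 of 82 and -0.19. Without replicate 1 it was 80 of 82 and 0.47. The cytochrome P450 and glutathione S-transferase list had 50 of 81 above 0 and a median of 0.22, and without that library 45 of 81 and 0.07. For the described DSX targets the library made little difference, with 2 of 10 above 0 and a median of -0.62 without it. With both 24 h libraries rich in reads outside genes left out together, that median was also -0.62. No list was fitted without a tra2ts 0 h library.

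**Figure D4:**
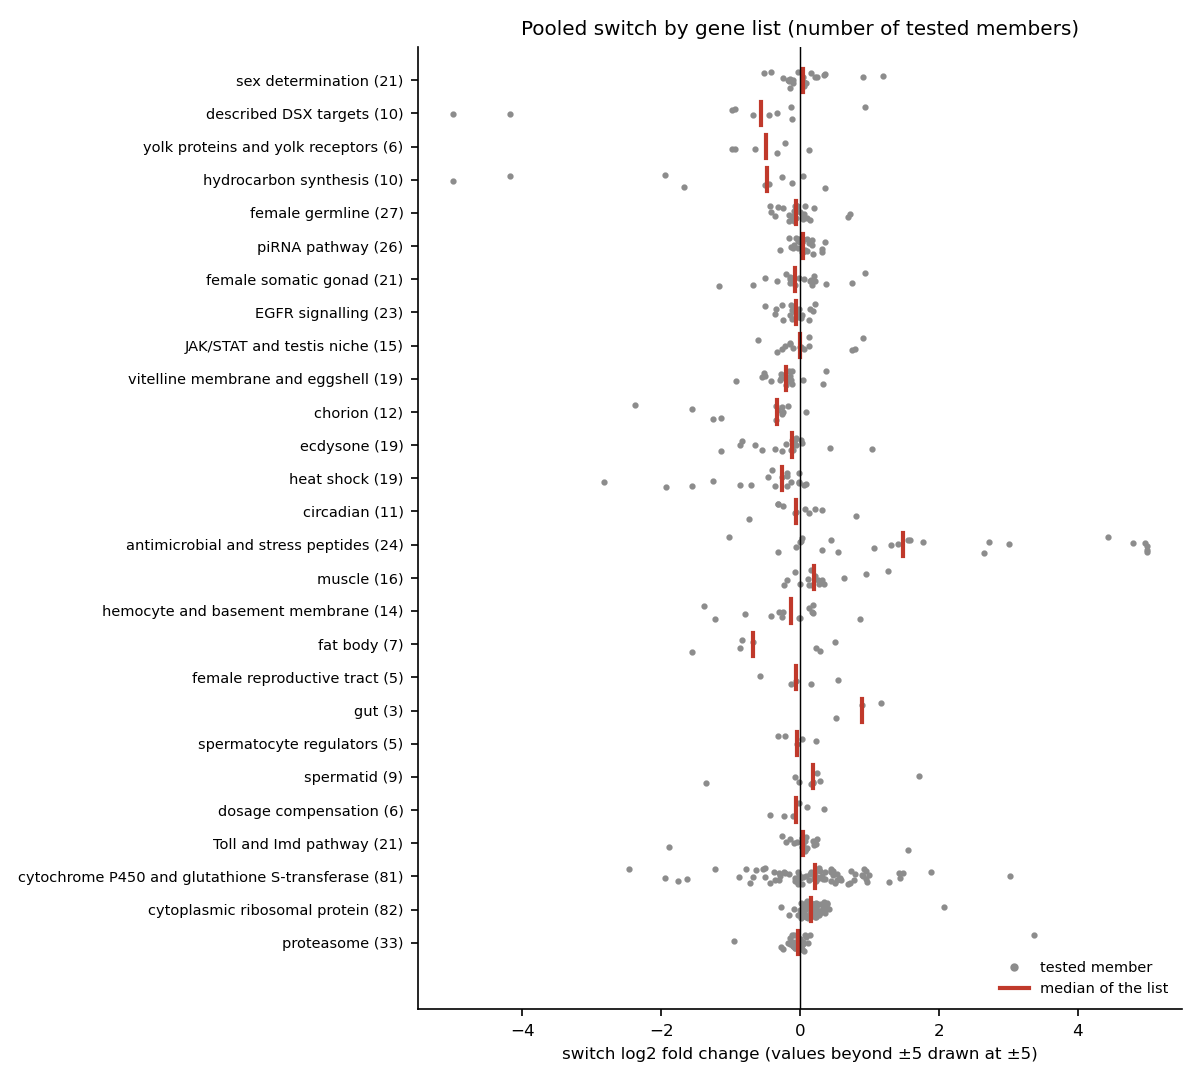
Switch log2 fold change (x axis; values beyond 5 in either direction drawn at the edge) of every tested member of 27 gene lists (y axis), with the list median as a red bar. The median of the antimicrobial and stress peptides (1.48) lies farthest from 0 and turned to -1.20 without w1118 0 h replicate 2; next are the gut list (0.89, 3 members tested), the fat body list (-0.68) and the described DSX targets (-0.56).

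Many more genes differed between the later times and 0 h, mostly with the same sign in both genotypes. No ovaries kept at 18 °C for 12 h or 24 h were used here, so time and temperature cannot be told apart. In tra2ts 38 genes were called (0.433%), 13 higher (0.148%) and 25 lower (0.285%) at the later times. In w1118 59 genes were called (0.672%), 16 higher (0.182%) and 43 lower (0.49%). The tra2ts and w1118 changes share no library. Of these calls 26 were shared, all in the same direction, which is 68.4% of the tra2ts calls and 44.1% of the w1118 calls. Of the 71 genes called in either genotype 70 had the same sign in both, and rtet was the exception. The median absolute switch of the 71 was 0.59 on the log2 scale, and 1 of them, rtet, was called in the switch. For 15 of the 71 the switch interval lay within 1 of 0, beside 47.8% of all 8784 genes. For most of the 71 a difference in size was thus neither called nor bounded within 2-fold. These counts moved with single libraries. In tra2ts they were 0 without either 0 h or either 12 h library, and 62 and 60 without 24 h replicate 1 and replicate 2. In w1118 they were 2 without 0 h replicate 2, 25 and 31 without 12 h replicate 1 and 2, and 21 and 24 without 24 h replicate 1 and 2, and 60 without 0 h replicate 1.

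Genes that rose in both genotypes included Ace, the acetylcholinesterase gene, by 4.48 in tra2ts (SE 0.53, adjusted p = 0.0159) and 6.39 in w1118 (SE 0.656, adjusted p = 0.0043). It stood at 0.139 to 0.371 CPM in the 4 libraries at 0 h and at 2.90 to 25.5 CPM in the 8 later libraries, with a switch of -1.91 that was not called. CG7381, LManI, a lysosomal mannosidase gene, and NLaz, a stress-related lipocalin gene, also rose in both, NLaz by 2.41 and 2.42. Those that fell in both included CG10581, from 10.0 to 10.8 CPM in all 4 libraries at 0 h to 0.187 to 0.676 CPM in the 8 later ones, by 4.40 in tra2ts (SE 0.39, adjusted p = 0.00428) and by 5.08 in w1118 (SE 0.408, adjusted p = 0.00162). Its exons overlap Polr3E on the other strand. Vajk3, CG13616, comt, which encodes an NSF fusion ATPase, and narya, a meiotic recombination gene, fell in both as well. Hsp23, a small heat shock gene, rose by 2.44 in w1118 (adjusted p = 0.0289) and had 2.08 in tra2ts (adjusted p = 0.0535).

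**Figure D5:**
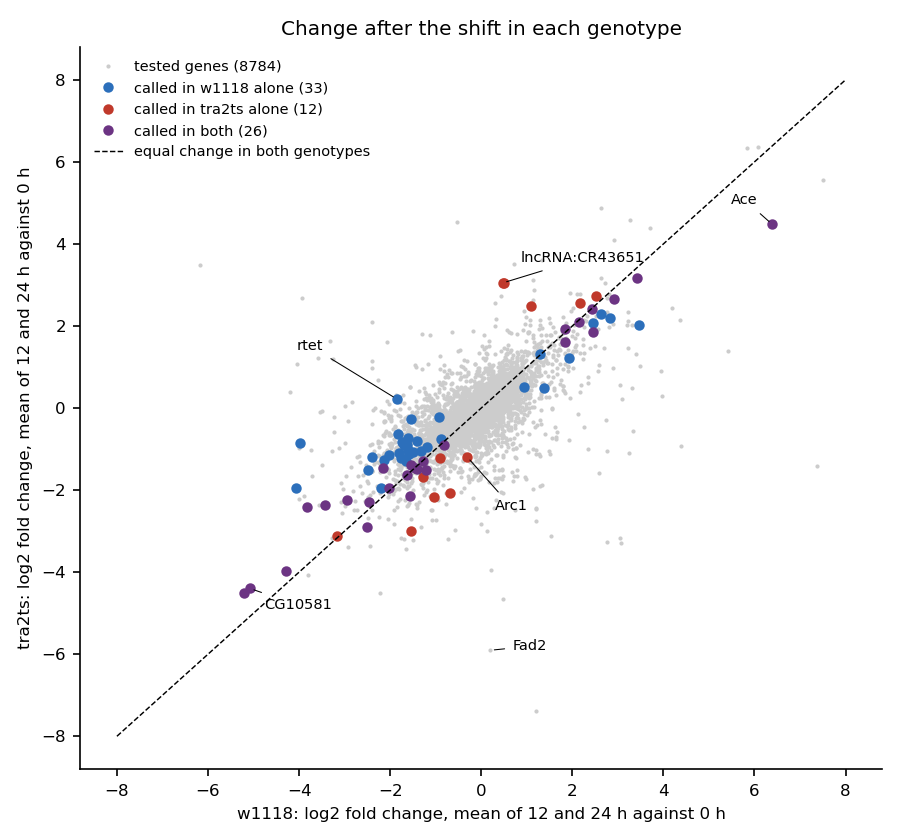
Log2 fold change of 12 h and 24 h against 0 h in w1118 (x axis) and tra2ts (y axis) for 8784 tested genes; coloured points are genes called in either genotype, and the dashed line marks equal change. The 26 genes called in both share a sign, some such as Ace (6.39 in w1118, 4.48 in tra2ts) away from the line, and rtet (-1.85 in w1118, 0.22 in tra2ts) differs in sign.

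The genotypes differed before the shift as well. At 0 h 24 genes were called (0.273%), 14 higher (0.159%) and 10 lower (0.114%) in tra2ts. At the later times 180 genes were called (2.05%), 115 higher (1.31%) and 65 lower (0.74%). Arm 2R, where tra2 lies, held 41.7% of the calls at 0 h and 27.8% at the later times, against 19.1% of the genes tested. The difference in calls between times was not tested as such, and the later comparison holds 8 libraries against 4. At 0 h the count was 1 to 4 without any one of the 4 libraries. Later the count moved both below and above 180 with the single library left out.

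Some of these differences were present at all times. bw, an eye pigment transporter gene on 2R, stood at 16.7 to 32.8 CPM in tra2ts and at 0 to 0.205 CPM in w1118, higher by 7.79 at 0 h (SE 0.708, adjusted p = 0.00215) and by 7.51 later (SE 0.535, adjusted p = 0.00012), with a switch of -0.28 (SE 0.888). Rpn12R, a paralogue of a proteasome subunit gene, had 395 counts in the later tra2ts libraries and 0 in w1118, at least 139.5-fold higher against 3 counts over the group. GstE1, a glutathione S-transferase gene, went the other way, at 1.90 to 6.28 CPM in tra2ts and 36.6 to 72.2 CPM in w1118. Exons of bw, GstE1 and sro overlap genes on the other strand. The ecdysteroid synthesis gene sro was higher in tra2ts at 0 h by 1.56 (SE 0.251, adjusted p = 0.0462) and later by 1.99 (SE 0.178, adjusted p = 0.000616), with a switch of 0.43.

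Muscle genes shared this pattern. All 16 tested members lay higher in tra2ts at 0 h (median 1.11, none called) and later (median 1.26, 3 called). Over all 8784 genes tested 4602 lay higher at 0 h (median 0.02, 0.159% called higher) and 4262 later (median -0.01, 1.31% called higher). The summed level of the muscle genes was 2090 to 2712 CPM in tra2ts against 1136 to 1312 CPM in w1118 at 0 h. Later it was 1100 to 1848 CPM against 625 to 991 CPM. In the switch 13 of 16 lay above 0 with a median of 0.20. The part of muscle sheath tissue in the genotype differences was not tested.

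The switch did not differ detectably between 12 h and 24 h. No gene was called for 24 h minus 12 h by edgeR or by DESeq2, and 64 genes (0.729%) had an unadjusted p under 0.05. The lowest p were those of CG11892 (7.43, SE 1.93), tok, a metalloproteinase gene (-2.47, SE 0.647), and CG31926 (-4.73, SE 1.30), each with an adjusted p of 0.9999 by edgeR. For rtet the difference was 0.30 (SE 0.268), with an interval of -0.30 to 0.90.

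Set against the testis switch, in which males with UAS-TraF, tubP-GAL80ts and tubP-GAL4 (TraF) were compared with tubP-GAL80ts and tubP-GAL4 alone over the same hours, at 30 °C per the extraction notes against 29 °C for ovaries (the treatment notes give 29 °C throughout), 2 of 12411 genes differed (0.0161%). The ovary switch of rtet was higher than the testis switch by 2.16 (SE 0.337, adjusted p = 0.0437 by edgeR). In testes rtet stood at 4.77 to 7.79 CPM in all 12 libraries, with a testis switch of -0.12 (SE 0.247). The other gene was tra, which the testis transgene encodes, at -4.14 (SE 0.354, adjusted p = 2.36e-05). The count was 3 without tra2ts 24 h replicate 1, 4 without w1118 0 h replicate 1, 2 without TraF 0 h replicate 2, TraF 12 h replicate 2 or Control 12 h replicate 2, and 1, without rtet, when any other single library was left out.

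The width of the intervals limited what could be said of small changes. The 95% interval of the switch lay within 1 of 0 on the log2 scale, a 2-fold change either way, for 4195 of 8784 genes (47.8%). The share was 65.2% among genes at 10 to 100 CPM, 62.9% above 100 CPM, 9.04% at 1 to 10 CPM and 0% under 1 CPM. For genes such as tra2, Sxl and Desat1 the interval lay within that range, and for dsx, Yp1, Fad2 and most described DSX targets it did not.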

How the data were processed

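Raw read counts per gene, 1 table for each library and not normalized, are what the authors deposited. Per the submitters' processing notes they come from TopHat 1.4.1 alignments to dm3 counted by HTSeq. Which HTSeq version, gene annotation and strand option were used is not given in the sources used here. Per the labels' protocols, 200 ng of total RNA went into TruSeq libraries sequenced as single 76-base reads. A symbol was found for 14732 of 15406 gene identifiers. Arms and overlapping exons were looked up by identifier in an annotation of another build, which is why coordinates are left out. HTSeq's summary lines were left out of totals and tests.

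The 12 ovary libraries were fitted together (R 4.3.3, edgeR 4.0.16, limma 3.58.1) after filterByExpr by group and TMM scaling, with a mean for each group, glmQLFit and two-sided glmQLFTest, prior count 0.125. SE and 95% intervals belong to the fitted contrast and are left out where a group held 0 counts. Count ratios of low genes have exact intervals, or a bound against 3 counts over the group; both cover counting error only, since reads lack molecular identifiers. Ovary minus testis used all 24 libraries. Alternatives were RLE scaling, no filter, DESeq2 1.42.0, a robust fit, a replicate block, 12 h and 24 h as 1 group, and each library left out. Chosen after seeing the data were leaving out w1118 24 h replicate 1 with tra2ts 24 h replicate 2, and list medians without single w1118 0 h libraries. Scripts were tested on simulated data.

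The libraries, the 27 lists and the named genes were chosen with earlier results of these data known, and list spellings were matched to the tables afterwards. Named genes were up to 12 rises and 12 falls by call, then by p, with at least 1 CPM in a group; a set list of sex genes; up to 4 members of each list by p; and up to 5 calls each way in other comparisons, or the 3 lowest p. Mhc, aly, can, dj, Mst84Da, Hsp23, comt, narya, NLaz, bond and Desat1 fall outside that rule and were picked with values in view. Nothing but the labels' "independent dissection" describes the replicates, so p-values measure the spread between dissections.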

Additional observations from a re-analysis of the deposited data

Results flagged for a closer look

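rtet and tra differed between the ovary and testis switches by a test of the difference itself (edgeR over all 24 libraries). For rtet the ovary switch was higher by 2.16 on the log2 scale (SE 0.337, adjusted p = 0.0437), with 4 of 4 later w1118 ovary libraries below every tra2ts ovary library. The call of rtet was lost with no filter on low counts and without both 24 h ovary libraries richest in reads outside genes, while that of tra was kept. For tra it was -4.14 (SE 0.354, adjusted p = 2.36e-05): tra stood at 7.51 to 11 CPM in all 12 ovary libraries and at 239 to 313 CPM in the 4 later TraF testes, whose transgene encodes it.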

How the results depend on the processing

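The switch kept 1 call, rtet each time, with RLE scaling, no filter, DESeq2, 12 h and 24 h as 1 group, and without both 24 h libraries richest in reads outside genes (adjusted p 2.31e-13 to 0.0374). It had 0 calls with the robust fit (adjusted p of rtet 0.0524) and 0 to 1 without single libraries. Of 15 group pairs 12 had correlations of same-numbered deviations over 0.1, and they ranged from -0.543 to 0.542; since 3 were not over 0.1 the numbers were not taken to pair the libraries. With the replicate block the switch had 0 calls (adjusted p of rtet 0.0956), the tra2ts change 68 and ovary minus testis 1, where rtet was the call lost. Calls in the tra2ts change, the w1118 change, the genotypes at 0 h and the genotypes later were 109, 192, 52 and 287 with no filter, and 350, 419, 105 and 431 with DESeq2. With 12 h and 24 h as 1 group the first 3 were 105, 130 and 37, and without both 24 h libraries 95, 280 and 40. Ovary minus testis had 1 call with no filter and without those libraries. Without single libraries, calls ranged over 0 to 62 in tra2ts, 2 to 60 in w1118, 1 to 4 for genotypes at 0 h, 65 to 249 for genotypes later, 1 to 4 for ovary minus testis and 0 to 0 for 24 h minus 12 h; a group left with 1 library was assumed to vary like the others. The cause of these shifts was not tested. Of 627 values of 33 named genes under alternatives 599 kept direction and call, 12 (rtet) lost the call and 16 changed sign, none of a gene with an unadjusted p under 0.05. Those 16 were of genes near 0, which ranged without single libraries from -0.72 to 0.22 (fru), -0.0648 to 0.36 (tra), -0.0445 to 0.14 (Sxl) and -0.11 to 0.046 (tra2); without both 24 h libraries fru had 0.0798 and tra2 0.00058.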
